A study of Arabidopsis thaliana with 15 samples.

Results

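Late risers are 30 genes of Arabidopsis roots whose transcripts stood near the water level after 1 h of hydrogen peroxide (H2O2) and well above it after 3 h. They were chosen by their measured levels, out of 14532 listed genes. A late riser averaged at least 10 CPM (a gene's counts scaled to a common library total) at 3 h of H2O2. Its log2 ratio to water, taken as log2 of mean CPM plus 2 over mean CPM plus 2, was under 0.5 in size at 1 h and at least 1.7 at 3 h. The 3 h criteria alone were met by 280 genes, and the other 250 had already moved past 0.5 by 1 h. The levels in water and at 1 h and 3 h of H2O2 thus chose the genes, and differences among these groups are given as a description with no test.

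The libraries came from roots of wild-type Columbia-0 seedlings aged 7 d, 30 to 50 seedlings a replicate, in 5 groups of 3 replicates lettered a, b and c. One group was given RB at 10 µM together with 5 mM H2O2 over 2 h, RB standing for Rose Bengal by the title of the series, a photosensitizing dye that yields singlet oxygen under light; a label also writes MRB. The others had 5 mM H2O2 for 1 h, 2 h or 3 h, or water, with time 0 in the title and 1 h in the treatment field. Treatment was given to whole seedlings in solution and roots were taken afterwards, so 2 h and 3 h differ from water in time as well as in H2O2, and these cannot be told apart. RB alone was not analysed here.

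H2O2 is both a toxic oxidant and a signal in plant cells. A first wave of transcription factor, heat shock and detoxification transcripts is known to follow it within the hour. Later changes commonly reach metabolism, the cell wall, hormone conjugation and the cell cycle, and starvation genes such as asparagine synthetase are known to answer to low sugar or energy.

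MARS-seq counts the 3' ends of transcripts. Total counts ran from 689372 to 6231140 a library, so that 3 counts stood for 0.481 to 4.35 CPM. The shallowest was library c at 1 h of H2O2, a group that helped choose the genes. Of 12 root cell type markers 11 were in the table. Their summed level ran from 744 to 764 CPM at 3 h and from 1358 to 1535 CPM in water. This gap lay mostly in the aquaporin gene TIP2-3, with means of 318 CPM at 3 h and 809 CPM in water. The root hair gene EXPA7 (3.10 and 60.4 CPM) and CASP1 (290 and 343 CPM) held smaller parts of it. All 10 leaf photosynthesis markers were in the table, and their sum ran from 252 to 677 CPM with RB, from 428 to 561 CPM at 1 h, from 393 to 495 CPM at 2 h, from 362 to 409 CPM at 3 h and from 338 to 415 CPM in water. At 3 h and in water these leaf sums overlapped. In bulk roots fewer cells of a type and less RNA per cell cannot be told apart, and the part of either marker list in the levels below was not tested.

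The 30 late risers together held 839, 745 and 656 CPM in water libraries a, b and c, 696, 992 and 954 CPM at 1 h of H2O2, 2364, 1992 and 2401 CPM at 2 h, and 3588, 3995 and 4297 CPM at 3 h. With RB the sum was 2019, 2628 and 3104 CPM. Water and 1 h overlapped, all 2 h libraries stood above both, and all 3 h libraries stood above those at 2 h. Mean levels at 3 h ran from 10.1 to 923 CPM (median 48.4 CPM), against 1.08 to 163 CPM in water (median 10.2 CPM). The 3 h library c was the highest of its group for 20 of the 30.

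The 2 h libraries did not choose the genes, and their levels were intermediate. For all 30 the mean at 2 h lay between the mean at 3 h and the means in water and at 1 h. The choice of genes high at 3 h and low in water and at 1 h favours this order. Its share among other genes was not counted. The log2 ratio to water was at least 1 at 2 h for 22 genes and under 0.5 for 3. Its median over the 30 was 0.23 at 1 h, 1.24 at 2 h and 2.04 at 3 h. Fitted with TMM scaling and a smaller added count, these medians were 0.40, 1.59 and 2.58, and 11 of the 30 were above 0.5 at 1 h, so the flat start depends on the scale. The 250 genes that had moved by 1 h had medians of 1.59, 2.12 and 2.48 at these times, and the 6095 listed genes with at least 10 CPM at 3 h had -0.07, -0.10 and -0.09. A description of the 30 as genes seen only by 3 h thus goes against their 2 h values. The median gene had 0.578 of its 3 h log2 ratio at 2 h, with a range from 0.225 to 0.920 and 20 genes at 0.5 or more.

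**Figure D1:**
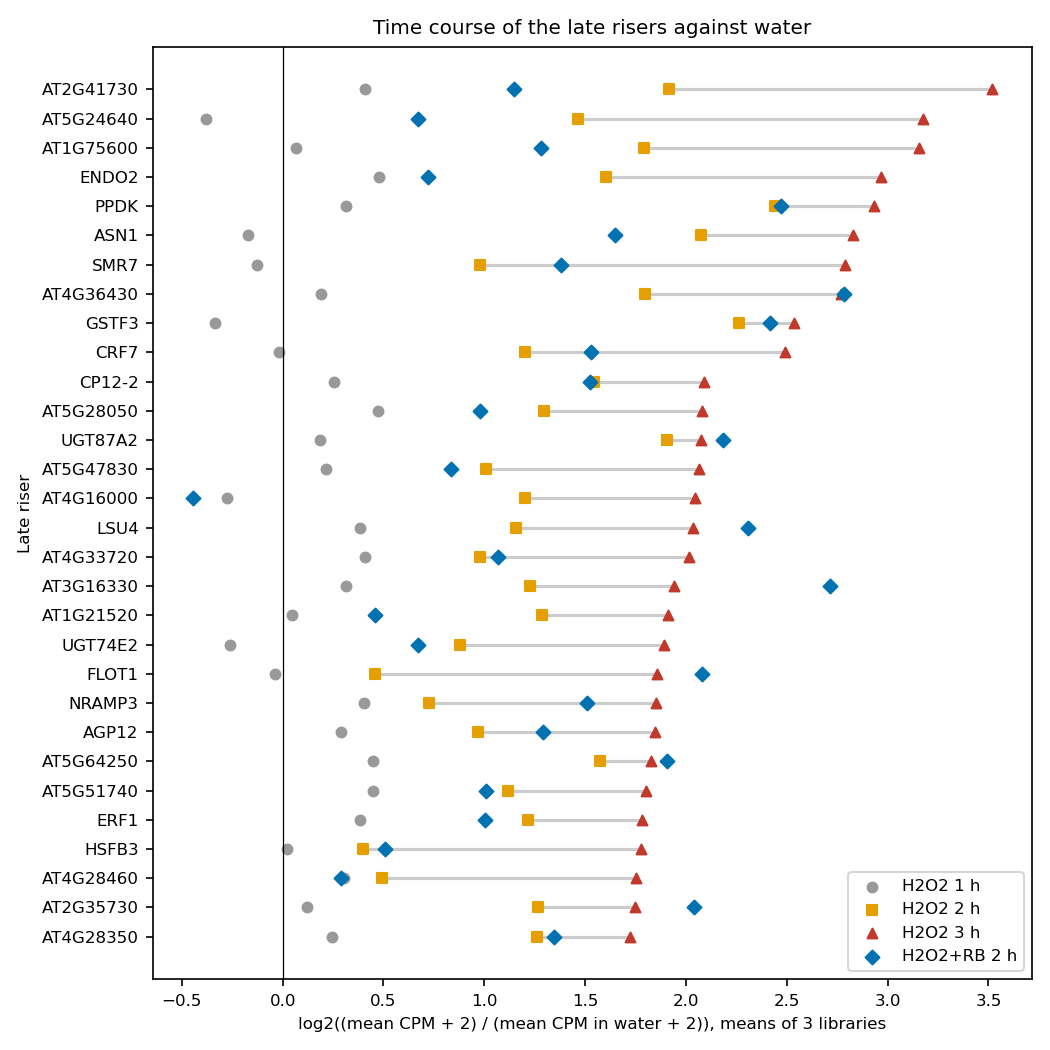
Mean level of each late riser against water, as log2 of mean CPM plus 2 over mean CPM in water plus 2 (x axis, means of 3 libraries), one gene a row; markers give H2O2 at 1 h, 2 h and 3 h and H2O2 with RB at 2 h. Every 2 h marker lies left of its 3 h marker, with HSFB3 near the 1 h level and UGT87A2 near the 3 h level.

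In the separate libraries 1 late riser had every 1 h value above every water value, where 9.74% of all listed genes did. At 2 h 24 had every library above water (9.71% of listed genes), with RB 25 did (13%), and at 3 h all 30 did (11.5%, in a contrast that chose the genes). From 2 h to 3 h 23 had groups that did not overlap, higher at 3 h, against 4.92% of listed genes. Since the genes were chosen for high 3 h and low water levels, the shares that involve 3 h or water are read as a description.

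**Figure D2:**
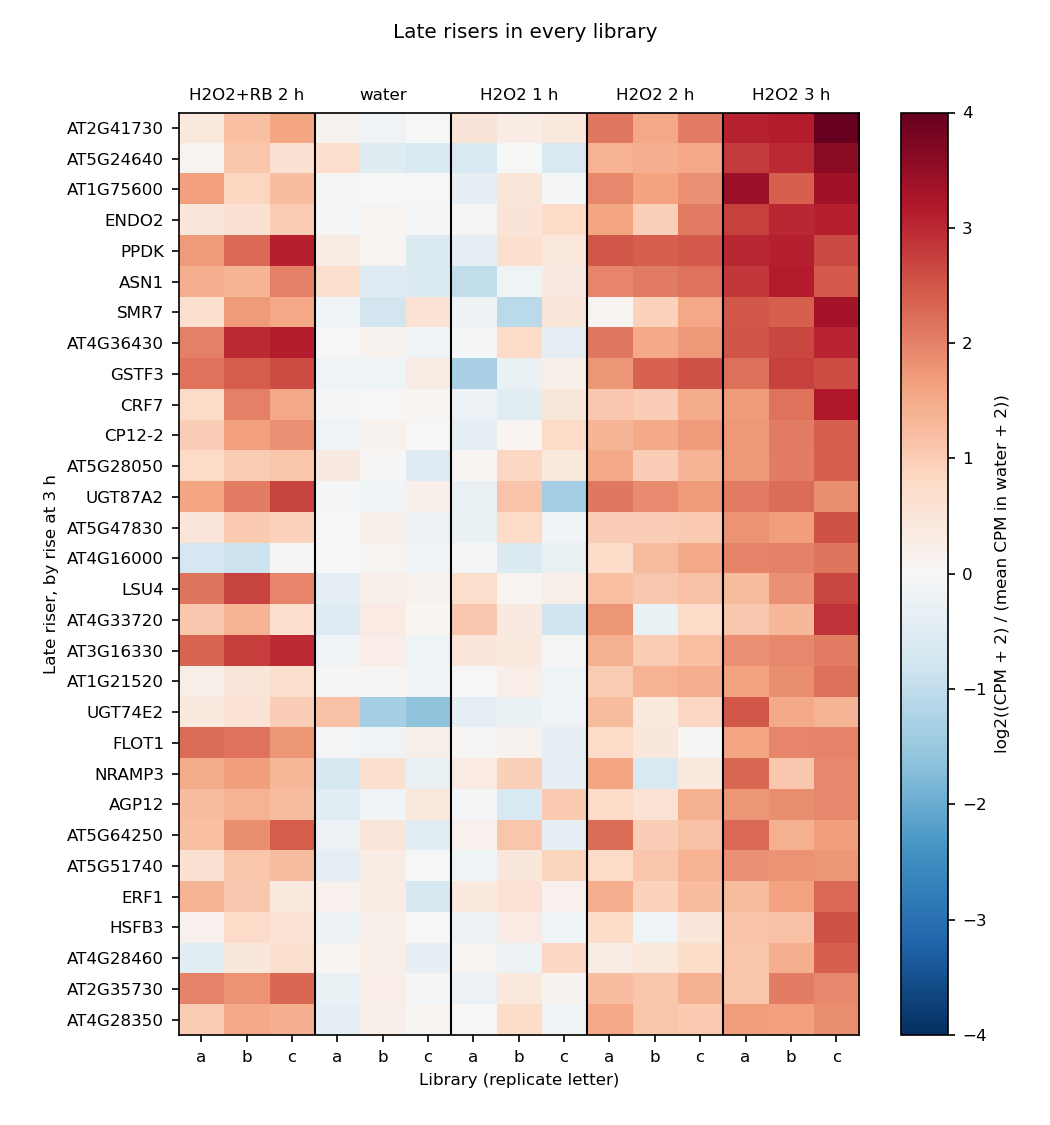
Level of the 30 late risers (rows, by rise at 3 h) in each of the 15 libraries (columns), coloured by log2 of CPM plus 2 over the gene's mean CPM in water plus 2. Most cells are pale in the water and 1 h columns, with exceptions such as UGT74E2 in water a and AGP12 at 1 h c, and most rows darken from 2 h to 3 h; the row of AT4G16000 is pale or blue with RB.

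Promoters of AT3G16330, FLOT1 and AT4G16000 are printed because these were the late risers called with RB against H2O2 alone. That of AT2G41730 stands for the largest log2 ratio with 2 CPM added. That of PPDK stands for genes with much of the 3 h log2 ratio at 2 h (0.83), though its 3 h libraries all exceeded those at 2 h. UGT87A2, GSTF3 and AT5G64250 had larger shares (0.92, 0.89 and 0.86) and are not printed. Each is the 250 bases before the annotated start in RefSeq's TAIR10.1 assembly, read 5′ to 3′ on the gene's strand, and loci were matched by identifier since no source used here names the build of the counts. Capitals mark any of 8 motifs searched on both strands: the W-box core TTGAC, the abscisic acid element core ACGTG and the G-box CACGTG that contains it, the GCC box core GCCGCC, the as-1 core TGACG, the drought element core CCGAC, the ACTCAT element and the heat shock pair GAANNTTC. The windows are chr3:5534874-5535123 (plus strand) for AT3G16330, chr5:8749430-8749679 (plus) for FLOT1, chr4:9064787-9065036 (minus) for AT4G16000, chr2:17409120-17409369 (plus) for AT2G41730 and chr4:8870980-8871229 (minus) for PPDK.
AT3G16330: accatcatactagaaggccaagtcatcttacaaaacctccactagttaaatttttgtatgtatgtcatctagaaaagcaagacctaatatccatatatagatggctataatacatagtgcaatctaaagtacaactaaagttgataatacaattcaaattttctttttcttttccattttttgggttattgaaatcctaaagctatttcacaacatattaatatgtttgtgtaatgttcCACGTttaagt
FLOT1: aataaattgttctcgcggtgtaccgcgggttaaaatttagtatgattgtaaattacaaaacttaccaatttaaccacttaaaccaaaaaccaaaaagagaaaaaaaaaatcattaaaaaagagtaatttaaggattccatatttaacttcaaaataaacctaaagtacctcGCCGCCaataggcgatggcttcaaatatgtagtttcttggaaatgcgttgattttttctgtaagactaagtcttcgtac
AT4G16000: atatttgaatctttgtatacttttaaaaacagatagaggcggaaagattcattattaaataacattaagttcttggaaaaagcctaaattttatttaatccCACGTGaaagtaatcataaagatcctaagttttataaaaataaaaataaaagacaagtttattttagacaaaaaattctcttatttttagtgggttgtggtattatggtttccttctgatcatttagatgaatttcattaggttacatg
AT2G41730: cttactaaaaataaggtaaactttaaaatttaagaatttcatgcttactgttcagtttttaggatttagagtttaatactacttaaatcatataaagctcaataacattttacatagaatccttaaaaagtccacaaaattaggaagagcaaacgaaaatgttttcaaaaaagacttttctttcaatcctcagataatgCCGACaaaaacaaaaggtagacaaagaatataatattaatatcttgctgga
PPDK: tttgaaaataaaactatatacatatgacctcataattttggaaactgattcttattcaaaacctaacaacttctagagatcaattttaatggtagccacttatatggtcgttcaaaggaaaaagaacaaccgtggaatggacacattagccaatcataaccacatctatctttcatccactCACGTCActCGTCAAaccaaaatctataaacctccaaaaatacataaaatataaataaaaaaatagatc

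Among the genes called with RB, AT3G16330 and AT4G16000 both hold the abscisic acid core, in AT4G16000 as part of a G-box, and FLOT1 holds a GCC box core. Over all 30 late risers the abscisic acid core occurred in 40.0% of the promoters, where 24.6% of the 14175 listed genes with a promoter hold it, and the as-1 core in 26.7%, where 19.4% do. The G-box occurred in 10.0% (7.48% of listed genes), the W-box core in 40.0% (45.4%), the drought core in 13.3% (13.1%), the ACTCAT element in 10.0% (11.7%), the heat shock pair in 6.67% (9.03%) and the GCC core in 3.33% (2.04%). FLOT1 was the 1 late riser with the GCC core. These are matches of letters and no test was made.

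With 2 CPM added, the log2 ratio of 3 h to water was largest for AT2G41730, a gene annotated as a calcium-binding site protein, at 3.52. It measured 5.67, 4.34 and 4.92 CPM in water, 8.07, 6.495 and 7.25 CPM at 1 h, 28.1, 18.3 and 26.6 CPM at 2 h, and 56.9, 59.1 and 118 CPM at 3 h. Its groups did not overlap at any step, and it was the 1 gene whose 1 h libraries all exceeded water. The mean at 3 h was 15.7-fold that in water, below the plain ratios of AT5G24640 (23.9-fold) and AT1G75600 (18.5-fold), which start from lower levels. AT5G24640, of no annotated role, measured 3.05, 0.20 and 0.00 CPM in water, 0.00, 1.12 and 0.00 CPM at 1 h, 6.11, 6.40 and 7.05 CPM at 2 h, and 19.4, 22.6 and 35.6 CPM at 3 h. Its 23.9-fold ratio of 3 h to water rests on 7, 1 and 0 counts in the water libraries. Its 1 h level rests on 0, 5 and 0 counts. Of the 30-base words in the last 500 bases of its transcript 3.82% also occur in that of AT2G41730.

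The histone, nuclease and cell cycle genes act in the nucleus or on nucleic acids: AT1G75600, a histone gene, the S1/P1-type nuclease gene ENDO2 (AT1G68290) and the inhibitor gene SMR7 (AT3G27630). AT1G75600 measured 1.75, 1.58 and 1.64 CPM in water, 0.90, 3.14 and 1.45 CPM at 1 h, 11.8, 9.15 and 10.96 CPM at 2 h, and 38.0, 17.2 and 36.4 CPM at 3 h. Its counts are uncertain, since 30.4% of its transcript-end words are shared with AT1G75610. ENDO2 measured 3.93, 4.73 and 4.10 CPM in water, 4.48, 6.94 and 8.70 CPM at 1 h, 16.7, 10.1 and 24.3 CPM at 2 h, and 39.95, 49.05 and 51.5 CPM at 3 h, so its 2 h and 3 h libraries were separate from water. SMR7, which belongs to the SIAMESE-related inhibitors of cyclin-dependent kinases, measured 16.6, 10.6 and 29.5 CPM in water, 16.1, 7.84 and 27.6 CPM at 1 h, 20.8, 37.5 and 59.5 CPM at 2 h, and 114, 107 and 206 CPM at 3 h. Its 2 h libraries overlapped with water, and 0.35 of its 3 h log2 ratio was present at 2 h.

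The metabolic genes included ASN1, the late riser with the most counts. ASN1 (AT3G47340), a glutamine-dependent asparagine synthetase known from darkness and sugar starvation, measured 209, 89.1 and 86.9 CPM in water, 63.6, 113 and 165 CPM at 1 h, 506, 545 and 589 CPM at 2 h, and 922, 1142 and 706 CPM at 3 h. Water and 1 h overlapped and the later groups stood apart. PPDK (AT4G15530), pyruvate orthophosphate dikinase, measured 27.9, 24.05 and 14.8 CPM in water, 17.0, 37.0 and 30.5 CPM at 1 h, 134, 124 and 132 CPM at 2 h, and 194, 208 and 148 CPM at 3 h, so that 0.83 of its 3 h log2 ratio was present at 2 h. AT5G28050, a deaminase gene known to act on guanosine, measured 210, 167 and 113 CPM in water, 171, 291 and 220.5 CPM at 1 h, 468, 327 and 419 CPM at 2 h, and 551, 679 and 863 CPM at 3 h. CP12-2 (AT3G62410), a small chloroplast protein that binds enzymes of the Calvin cycle, had mean levels of 4.11 CPM in water, 15.8 CPM at 2 h and 23.996 CPM at 3 h. Without ASN1 the summed level of the other late risers still ran from 2666 to 3591 CPM at 3 h, against 569 to 656 CPM in water.

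Genes of detoxification and conjugation included the late risers that were nearest to their 3 h level at 2 h. GSTF3 (AT2G02930), a phi class glutathione S-transferase, measured 13.96, 13.99 and 20.5 CPM in water, 5.38, 13.0 and 18.9 CPM at 1 h, 60.2, 91.5 and 103 CPM at 2 h, and 82.3, 119 and 108 CPM at 3 h. The 2 h and 3 h libraries of GSTF3 overlapped, and 9.98% of its transcript-end words are shared with AT4G02520. UGT87A2 (AT2G30140), a glycosyltransferase gene, measured 10.0, 9.07 and 12.3 CPM in water, 8.07, 25.5 and 2.90 CPM at 1 h, 52.1, 43.9 and 38.4 CPM at 2 h, and 51.2, 56.9 and 43.4 CPM at 3 h. It held 0.92 of its 3 h log2 ratio at 2 h, the highest share among the 30. UGT74E2 (AT1G05680), which conjugates the auxin precursor indole-3-butyric acid, was 17.5 CPM in water library a and 1.38 and 0.82 CPM in b and c, so its 2 h libraries, at 18.7, 9.15 and 13.3 CPM, overlapped with water. It shares 10.6% of its transcript-end words with AT1G05675.

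Cell wall, secretion and membrane genes made up a further group. AT4G36430, a class III peroxidase of the kind that uses H2O2 in the wall, measured 44.5, 48.1 and 38.5 CPM in water, 42.1, 75.0 and 33.4 CPM at 1 h, 194, 128 and 149 CPM at 2 h, and 262, 287 and 379 CPM at 3 h. AGP12 (AT3G13520), an arabinogalactan peptide, measured 62.8, 81.2 and 118 CPM in water, 84.2, 56.0 and 181 CPM at 1 h, 150, 133 and 237 CPM at 2 h, and 301, 321 and 338 CPM at 3 h. Both were separate from water at 2 h and higher again at 3 h. FLOT1 (AT5G25250), a flotillin of membrane microdomains, measured 5.67, 5.12 and 7.38 CPM in water, 6.27, 6.94 and 4.35 CPM at 1 h, 11.8, 9.15 and 6.26 CPM at 2 h, and 22.3, 29.4 and 29.8 CPM at 3 h, which makes it one of the latest, with 0.25 of its 3 h log2 ratio at 2 h. NRAMP3 (AT2G23150), an exporter of metals from the vacuole, was detected unevenly, at 0.87, 4.93 and 1.64 CPM in water, 11.4, 0.91 and 3.91 CPM at 2 h and 19.9, 7.52 and 15.1 CPM at 3 h. The lectin receptor kinase gene AT4G28350 had mean levels of 9.90 CPM in water and 37.3 CPM at 3 h.

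Transcription factor genes were 3 of the 30. CRF7 (AT1G22985), a cytokinin response factor, measured 17.5, 17.9 and 19.7 CPM in water, 15.2, 13.0 and 26.1 CPM at 1 h, 40.7, 38.4 and 55.6 CPM at 2 h, and 64.2, 89.5 and 184 CPM at 3 h. ERF1 (AT3G23240), which joins ethylene and jasmonate signals, had mean levels of 12.6 CPM in water and 48.3 CPM at 3 h. HSFB3 (AT2G41690), a class B heat shock factor, measured 2.62, 4.14 and 3.28 CPM in water, 6.92, 2.74 and 5.48 CPM at 2 h, and 9.80, 10.0 and 29.1 CPM at 3 h. It was the latest of the 30, with 0.22 of its 3 h log2 ratio at 2 h, and library c held most of the 3 h level. AT4G28460, of no annotated role and with 0.28 of its log2 ratio at 2 h, measured 1.75, 2.17 and 0.82 CPM in water, 2.44, 2.74 and 3.91 CPM at 2 h and 5.64, 7.88 and 16.7 CPM at 3 h.

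The remaining late risers were LSU4 (AT5G24655), of a family known for its response to low sulfur, AT4G33720, of the family of pathogenesis-related protein 1, AT3G16330, annotated as rapidly elicited by the fungal Avr9 signal, AT2G35730, a heavy metal domain protein, AT5G64250, an aldolase-type barrel protein with 0.86 of its 3 h log2 ratio at 2 h, AT5G51740, a peptidase of family M48, and AT1G21520, AT4G16000 and AT5G47830, of no annotated role. Their log2 ratios to water at 3 h ran from 1.75 to 2.06. AT4G33720 is the least certain, with 1, 12 and 2 counts in the water libraries. LSU4 and AT5G24640 lie within 2 genes of each other on chromosome 5. A gene on the opposite strand overlaps ENDO2, PPDK, ASN1, AT5G64250 and AT5G51740, and no source used here says how strand was counted, so reads of these pairs may not be told apart.

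At the thresholds, AT4G28350, AT2G35730 and AT4G28460 stood just inside with log2 ratios of 1.72, 1.75 and 1.75 at 3 h, and AT5G02160, PR-1-LIKE and AT3G16280 just outside with 1.69, 1.67 and 1.67. On the 1 h side AT5G51740, AT5G28050 and ENDO2 were just inside at 0.45, 0.47 and 0.48. Just outside were AT5G07330 at 0.52 and NIT2 and SEN1 at -0.505 and -0.507.

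In a model of all genes (edgeR quasi-likelihood, Benjamini-Hochberg adjustment over 9986 genes tested, call at adjusted p under 0.05) all 30 late risers were tested. Against water 23 were called higher at 2 h of H2O2, where 9.21% of genes tested were. The 7 not called were SMR7, AT4G33720, UGT74E2, FLOT1, NRAMP3, HSFB3 and AT4G28460, with fitted log2 fold changes from 0.79 to 1.89. With RB 23 were called higher against water as well, where 11.6% of genes tested were. Both comparisons use the same water libraries, which had also chosen the genes, so the calls are a description. In 20 genes both were called, and AT4G33720, UGT74E2, HSFB3 and AT4G28460 were called in neither.

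The comparison of RB and H2O2 with H2O2 alone at 2 h asks what the dye adds, and neither group chose the genes. Over the late risers the median log2 fold change was -0.02, against 0.02 over the 9986 genes tested, and single genes ran from -1.81 to 1.75. Of the 30, 2 were called higher, where 0.741% of genes tested were, and 1 was called lower, where 1.69% were. AT3G16330 and FLOT1 rose and AT4G16000 fell. Among the 250 genes as high at 3 h that had moved by 1 h, 19 were called higher and 6 lower.

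With RB AT3G16330 measured 333, 445 and 521 CPM, against 177, 133 and 150 CPM with H2O2 alone at 2 h. The groups did not overlap, and the RB libraries also stood above the 3 h libraries of H2O2 alone at 232, 249 and 275 CPM. Such an order of RB over 3 h was found in 3062 of the 14532 listed genes. The log2 fold change was 1.45 ± 0.22 (SE, edgeR adjusted p = 0.00114). FLOT1 measured 36.0, 34.6 and 25.7 CPM with RB, against 11.8, 9.15 and 6.26 CPM with H2O2 alone at 2 h, again without overlap (log2 1.75 ± 0.33, edgeR adjusted p = 0.00691). One of the latest genes of the H2O2 series thus reached with RB at 2 h a mean of 32.1 ± 5.59 CPM (SD, n = 3), beside 27.2 ± 4.22 CPM at 3 h of H2O2 alone.

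AT4G16000 went the other way. It measured 5.998, 5.28 and 11.6 CPM with RB, against 19.5, 29.3 and 35.2 CPM with H2O2 alone at 2 h, and the groups did not overlap. The log2 fold change was -1.81 ± 0.36 (SE, edgeR adjusted p = 0.00785), and without the H2O2 2 h library c it was -1.55 (adjusted p = 0.07) and no longer called. Its RB libraries overlapped with water at 11.3, 12.0 and 9.84 CPM, and it was the 1 late riser whose fitted log2 fold change of RB against water was below 0, at -0.31.

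**Figure D3:**
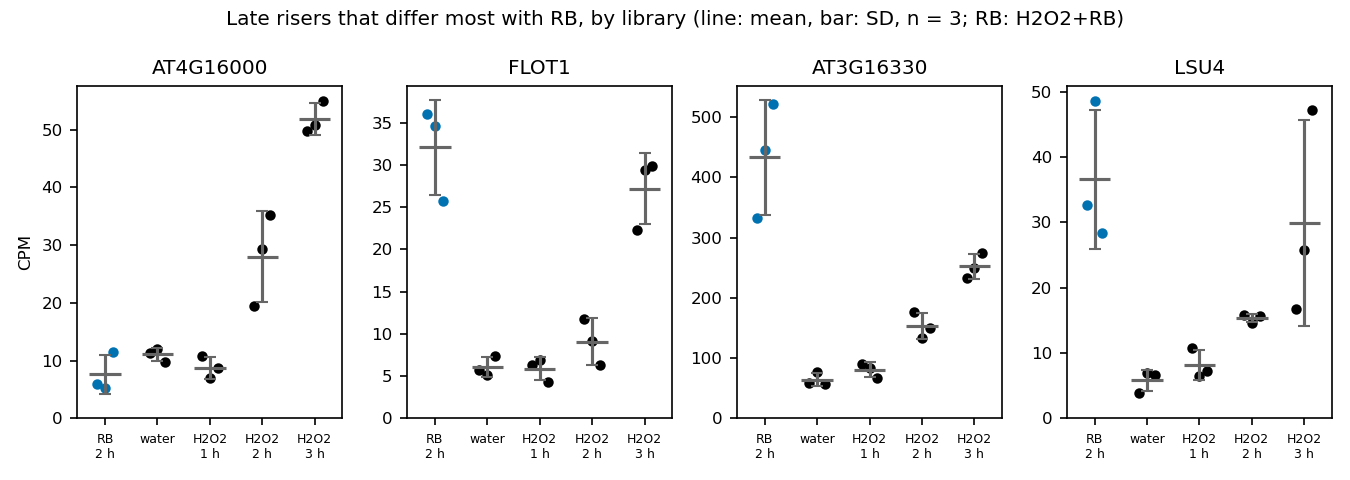
CPM of the 4 late risers with the largest fitted difference between H2O2 with RB and H2O2 alone at 2 h, one dot a library (blue with RB, black otherwise; line, mean; bar, SD, n = 3). FLOT1, AT3G16330 and LSU4 have their RB dots above those at 2 h of H2O2, and AT4G16000 has them near the water level.

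The other 27 were not called, at fitted log2 fold changes from -1.19 to 1.19. In the separate libraries 4 genes had every RB value above every value of H2O2 alone at 2 h (8.5% of listed genes did) and 3 had every one below (7.82% of listed genes). The 4 were AT3G16330, FLOT1, LSU4 and AT2G35730, and the 3 were AT4G16000, AT5G24640 and AT1G21520. LSU4 measured 32.7, 48.7 and 28.4 CPM with RB, against 15.9, 14.6 and 15.7 CPM with H2O2 alone (log2 1.19 ± 0.41, edgeR adjusted p = 0.184). AT4G36430 measured 184, 357 and 398 CPM with RB, against 194, 128 and 149 CPM (log2 0.95 ± 0.29, edgeR adjusted p = 0.0996), and its RB library a lay inside the range of H2O2 alone. Without that library AT4G36430 passed at log2 1.21 (adjusted p = 0.0354).

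Of the 10 late risers with the largest log2 ratio at 3 h, the fitted fold change with RB was below 0 in 6 and above 0 in 4. SMR7, CRF7, AT4G36430 and GSTF3 were the 4 above 0. AT2G41730 measured 7.33, 14.1 and 18.9 CPM with RB, against 28.1, 18.3 and 26.6 CPM, with overlap (log2 -0.84 ± 0.39, adjusted p = 0.369 by edgeR). AT5G24640 measured 1.33, 4.69 and 2.73 CPM with RB, against 6.11, 6.40 and 7.05 CPM (log2 -1.19 ± 0.67, adjusted p = 0.507). ENDO2 measured 6.66, 7.62 and 10.6 CPM with RB, against 16.7, 10.1 and 24.3 CPM, also with overlap (log2 -1.03 ± 0.36, adjusted p = 0.182). PPDK and GSTF3 were near 0 (log2 -0.01 ± 0.29 and 0.11 ± 0.32). The 95% intervals are not adjusted for the number of genes, and those of 6 of the 27 uncalled genes did not hold 0. The intervals of 7 of the 27 lay within -1 and 1, and those of the others reached as far as -2.58 and 2.06. A p that misses the threshold thus does not show that RB left these genes alike.

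**Figure D4:**
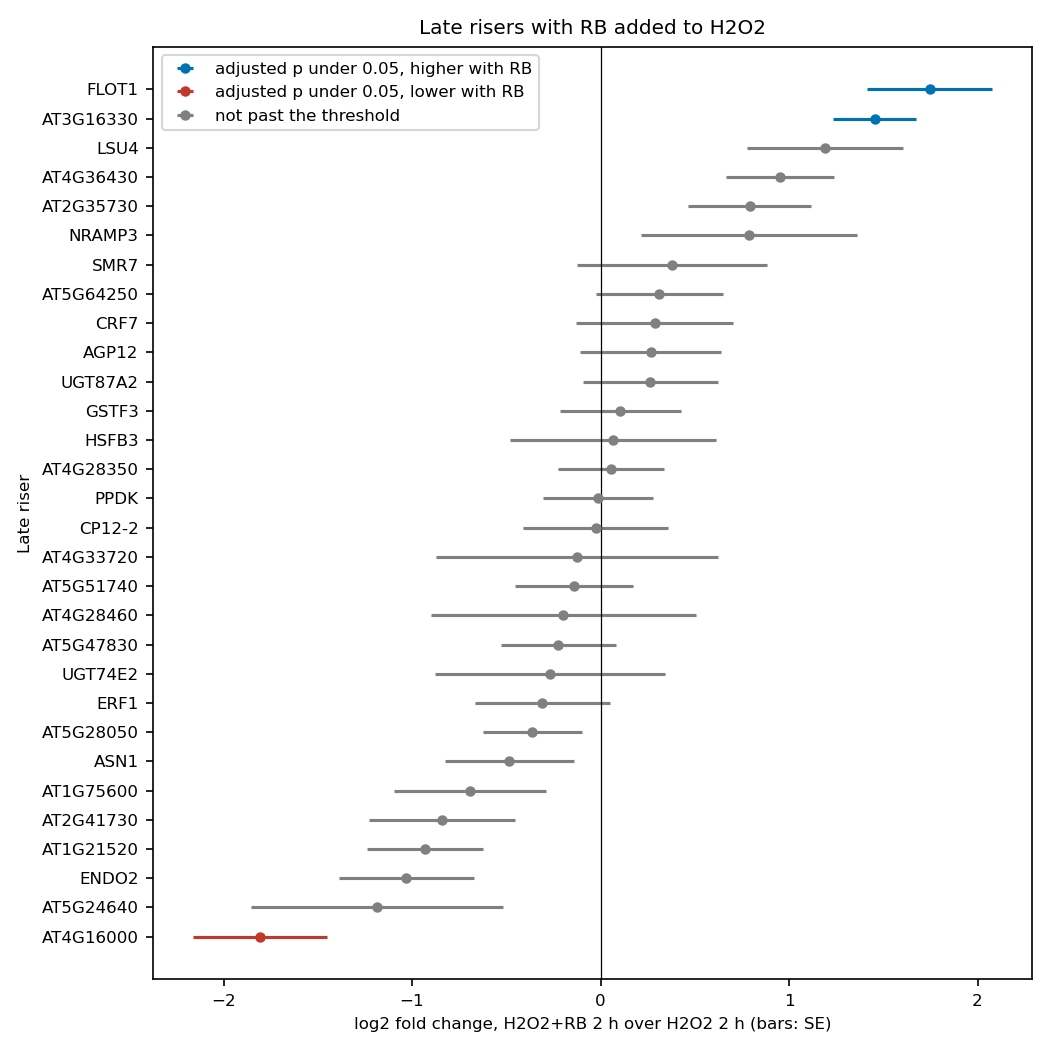
Fitted log2 fold change of H2O2 with RB over H2O2 alone at 2 h (x axis; bars, SE) for each of the 30 late risers, sorted. FLOT1 and AT3G16330 (blue) and AT4G16000 (red) passed the test, and the other 27 did not.

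With RB the 3 libraries differed among themselves. Library c, the deepest at 6231140 counts, was the highest of the group for 17 of the 30 late risers and had the highest leaf marker sum, 677 CPM, against 252 CPM in a and 359 CPM in b. Its part in the RB levels was not tested. The calls of AT3G16330, FLOT1 and AT4G16000 were also made without that library.

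Of 16 gene lists, 14 held no late riser. Asparagine synthetase and PPDK stand in the list of starvation and amino acid breakdown genes, of which 19 of 21 were tested. At 2 h 8 of the 19 were called higher, where 9.21% of genes tested were, and 11 were not called. At 3 h 10 were higher, where 16.2% of genes tested were, but these include ASN1 and PPDK, which were chosen for this difference. At that time 1 was lower, LKR, which begins lysine breakdown (log2 -2.90 ± 0.66, edgeR adjusted p = 0.00284). The share of genes tested called lower at 3 h was not counted, and 4446 of the 14532 listed genes had every 3 h library below water. With RB 7 were higher against water, where 11.6% of genes tested were, and 12 were not called. The median log2 fold change of the list against water was 0.92 at 2 h and 0.84 at 3 h, beside -0.03 and -0.07 over all genes tested. Without the pair of late risers 6 of 17 were higher at 2 h (9.21% of genes tested) and 8 of 17 at 3 h (16.2% of genes tested). SEN1, a dark-induced gene of the list, just missed the 1 h limit of the late risers. Between RB and H2O2 alone at 2 h the lowest adjusted p of the 19 was 0.0735.

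SMR7 stands in the list of DNA damage and cell cycle arrest genes, of which 5 of 16 were tested, so the list is mostly unmeasured. At 3 h 3 of the 5 were called higher against water, where 16.2% of genes tested were. These were the SIAMESE-related genes SMR4 (log2 2.85 ± 0.34, edgeR adjusted p = 4.21e-06), SMR5 (log2 5.52 ± 0.51, adjusted p = 2.01e-07) and SMR7, which was chosen for this difference. SIM, the founding member of this family, was called lower (log2 -1.21 ± 0.20, adjusted p = 0.000155). The share of genes tested that were called lower was not counted. SMR1, of the same family, was below 0 against water but not called. It stood at log2 -0.46 ± 0.24 at 3 h (edgeR adjusted p = 0.167), -0.73 ± 0.25 at 2 h (adjusted p = 0.061) and -0.25 ± 0.24 with RB (adjusted p = 0.526). At 2 h SMR4 and SMR5 were called higher, where 9.21% of genes tested were, and SIM was called lower. SMR7 was not called at 2 h (log2 1.30 ± 0.54, adjusted p = 0.126). With RB SMR4, SMR5 and SMR7 were called higher against water, where 11.6% of genes tested were, and SIM was called lower. SMR7 stood at log2 1.68 ± 0.53 (adjusted p = 0.0275), with libraries of 30.7, 66.8 and 59.7 CPM, against 16.6, 10.6 and 29.5 CPM in water.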

How the data were processed

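Per the labels' protocols, RNA of roots went through MARS-seq, a 3'-end count method. The deposited table holds raw counts per gene for 15 libraries, used here as counts, with STAR 2.4.2a, HTSeq, cutadapt, bcl2fastq and DESeq2 among the tools of the submitters' processing notes. No source used here gives the build, the annotation or the handling of molecular identifiers, so the CPM that 3 counts stand for covers counting error only. The authors' normalized signal (counts over a size factor), regularized log2 values, log2 fold changes and p-values, per the file headers, were not used; 30 per-sample columns were left out.

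CPM is a count over the column sum, scaled to a common total. The model was edgeR 4.0.16 under R 4.3.3 (filterByExpr by group with minimum count 10 and total 15, TMM, glmQLFit robust over 5 groups, glmQLFTest two-sided), which tested 9986 genes, set 4546 aside and left 10 residual degrees of freedom. The script was tested on simulated data. DESeq2 1.42.0, other scalings, no filter, the replicate block and leaving out each library were alternatives. The members and lists were chosen with earlier results of these data known. Named were the 10 late risers with the largest and the 10 with the highest 3 h level, those called with RB, those in a list, those at the thresholds and the 5 with the highest and lowest ratio of 2 h to 3 h; others were named by role after their values were seen. Each group's 3 libraries are biological replicates per the labels.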

Additional observations from a re-analysis of the deposited data

How the results depend on the processing

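The calls of AT3G16330 and FLOT1 with RB against H2O2 alone at 2 h were made in all 21 alternatives (adjusted p from 8.37e-08 to 0.0141 and from 0.000928 to 0.0484), and that of AT4G16000 in 20 (adjusted p from 0.00073 to 0.07). Without one library in turn, late risers called lower numbered 0 to 1 and the median log2 fold change ran from -0.087 to 0.18; it was 0.18 without H2O2+RB 2 h replicate a and 0.08 without H2O2 2 h replicate c. LSU4 passed with only the 2 groups compared in the fit (log2 1.19, adjusted p = 0.0456). Late risers called higher against water ran from 16 to 24 at 2 h and from 18 to 23 with RB. Calls over all genes, 243 with RB against H2O2 alone, ran from 92 without H2O2 2 h replicate c to 334 in DESeq2. With the replicate block 3 late risers were called, 2 higher and 1 lower, and 230 genes in all; no source used here says what the letters mark, and residuals of same-letter libraries with RB and with H2O2 alone at 2 h correlated at -0.20, -0.07 and -0.06, so they were not taken as pairs. With TMM library sizes in the rule 55 genes qualified, 26 of them among the 30; the cause was not tested, and the other settings of the rule gave 26 to 45 genes, with 45 without H2O2 1 h replicate b. With 5 CPM added 30 qualified, of which 17 were among the 30. Counts in water libraries a, b and c were 7, 1 and 0 for AT5G24640, 1, 12 and 2 for AT4G33720 and 2, 25 and 2 for NRAMP3.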
